A study of Mus musculus with 17 samples.

Results

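Enteric neurons are told apart by the transmitters they make, and the genes examined here are the transmitter genes of their main classes: Vip, Nos1, Tac1, Penk, Cartpt, Gal, Npy, Nmu, Calcb and Grp. They were chosen by name, as the entries of the count table whose gene symbol equals a listed name, and all 10 were found among the 23719 entries of the table. Motor neurons that relax the gut muscle release nitric oxide, which the neuronal synthase encoded by Nos1 makes on demand, together with vasoactive intestinal peptide. Motor neurons that contract the muscle release acetylcholine and tachykinins, and intrinsic sensory neurons and interneurons carry further peptides. A neuropeptide gene encodes a precursor that convertases cut inside dense core vesicles, so its mRNA is a measure of transcript and not of stored or released peptide.

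The samples were colon explants of 17 male C57BL/6 mice aged 32 to 34 weeks. The 8 GWI mice, a model of Gulf War Illness, drank water with pyridostigmine bromide (PB) at 2 mg/kg for 7 days and recovered without it for 21 days, and the 9 Control mice were given water. PB is a reversible inhibitor of acetylcholinesterase, the enzyme that ends the action of acetylcholine. Tissue was taken at day 30, and poly(A)-selected RNA was sequenced and counted per gene. Sums of counts per mouse ran from 16293537 to 20741212. The methods name neither the layers of the gut wall in an explant nor the stretch of colon it came from, and no cell type was isolated, so every level below is that of a gene in the whole sample.

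Some colons stood apart in genes that mark position along the gut. Hoxa13, a patterning gene of the hindgut end, had 71.0 CPM (counts scaled to library size with edgeR's TMM factors) in Control replicate 1 and 75.3 CPM in GWI replicate 5, against 1.59 to 16.1 CPM in the other colons. Hoxb8, a gene of more anterior segments, was lowest in the same colons, at 2.91 and 10.8 CPM, and the others had 35.6 to 61.6 CPM. Fabp6, the bile acid binding protein of the ileum, had 119 CPM in Control replicate 6 and 314 CPM in Control replicate 7, where the ileal Paneth cell defensin Defa24 was also present, at 60.4 and 120.0 CPM. Fabp6 was at most 6.90 CPM in all other colons. Neuron markers also varied within the control group. The summed level of 13 neuron genes was 103 CPM in Control replicate 7, 124 CPM in Control replicate 9 and 131 CPM in Control replicate 8, and 298 to 637 CPM in the other controls. The GWI colons had 127 to 428 CPM. Where leaving out such a colon ends the call of a transmitter gene or shifts its value strongly, the value without it is given.

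Of the 10 transmitter genes, 9 had enough counts to be tested with edgeR among 14146 genes, and Npy had too few. Each log2 fold change divides GWI by control, a negative value being lower in GWI colons. Adjusted p-values are those of the edgeR quasi-likelihood test, adjusted over all tested genes (Benjamini-Hochberg). Tac1 alone met the threshold of an adjusted p under 0.05, with less in GWI colons. Across all tested genes 26.8% were called, 13.5% as lower and 13.4% as higher, so 1 call among 9 genes does not set the transmitter genes apart. All 9 log2 fold changes were negative, from -0.73 to -0.30 with a median of -0.53, beside a median of -0.06 over all tested genes, of which 55.2% were negative. In none of the 9 genes were the groups free of overlap in CPM, which 2.35% of all tested genes were. In a bulk sample, fewer neurons of a class and less RNA per neuron cannot be told apart.

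**Figure D1:**
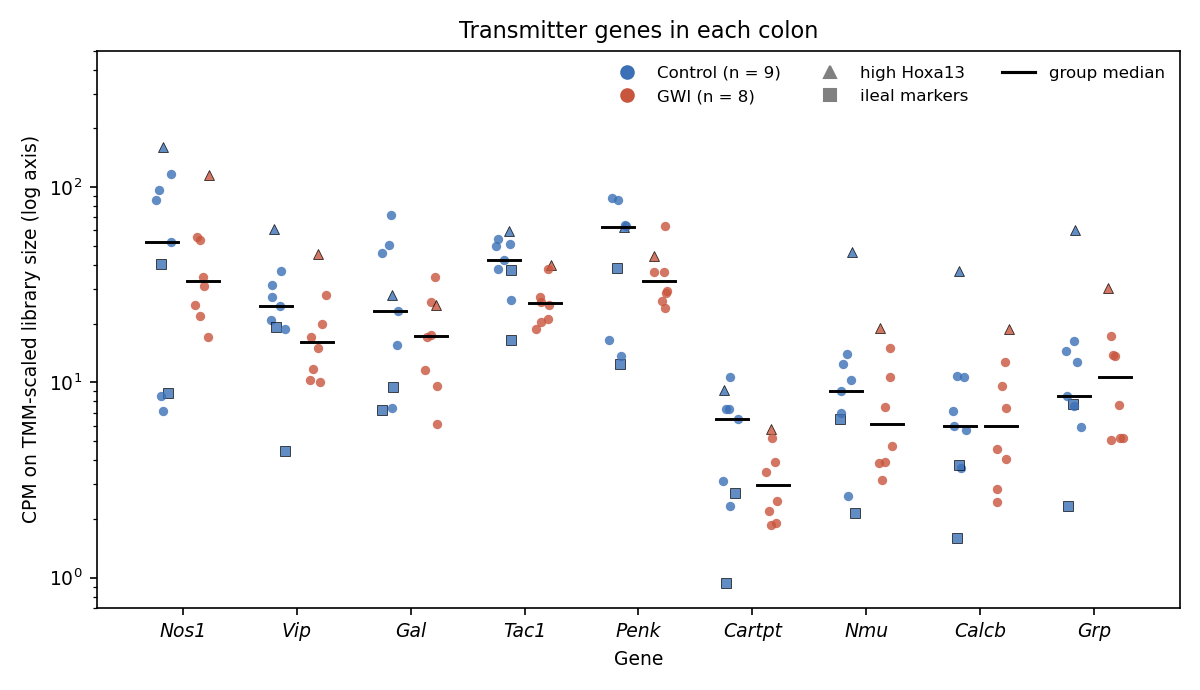
Level of the 9 tested transmitter genes in each colon, in CPM on a log axis, with 9 control colons in blue, 8 GWI colons in red and a black bar at each group's median; triangles mark the colons with high Hoxa13 and squares those with ileal markers. The groups overlap for each gene, and the control colons spread more widely, as for Nos1, from 7.11 to 160.2 CPM in controls and from 17.1 to 116 CPM in GWI colons.

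The genes of inhibitory motor neurons varied widely between colons of the same group. Nos1 (ENSMUSG00000029361.18, chromosome 5, 117781032 to 117958840 in GRCm38) had 7.11 CPM in the lowest control colon, a median of 52.1 and 160.2 in the highest, and 17.1, 33.0 and 116 CPM in GWI colons. The highest colon of each group was the colon with high Hoxa13, and the controls with few neuron markers, replicates 7, 8 and 9, lay below every GWI colon, so the GWI values sat inside the control range. On the log2 scale the change was -0.53 (SE 0.57, 95% interval -1.73 to 0.67, adjusted p = 0.497). An interval this wide reaches from a large decrease to an increase, so the comparison without covariates says little about Nos1. It was -0.23 without Control replicate 1, -0.90 without GWI replicate 5 and -0.61 without both. Exons of Nos1 share 268 bases with Gm26995 on the opposite strand, and the sources used here do not say whether strand was used in counting.

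Vip (ENSMUSG00000019772.5, chromosome 10, 5639218 to 5647617) encodes the precursor of vasoactive intestinal peptide, which relaxes smooth muscle and drives epithelial secretion. It had 4.47, 24.7 and 61.4 CPM as lowest, median and highest in control colons and 10.0, 16 and 45.3 CPM in GWI colons. Here too the highest value of each group was in the colon with high Hoxa13, and 6 of the 8 GWI colons lay below the control median. The log2 change was -0.47 (SE 0.38, 95% interval -1.27 to 0.33, adjusted p = 0.359), with -0.22 when Control replicate 1 was left out, -0.77 when GWI replicate 5 was, and -0.52 without both. Control replicates 8 and 9 kept 18.7 and 24.7 CPM of Vip although their Nos1 was near the bottom of the range, at 8.56 and 7.11 CPM, so the low Nos1 of these colons was not matched by Vip.

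Gal (ENSMUSG00000024907.7, chromosome 19, 3409915 to 3414544) encodes galanin, a peptide of enteric motor neurons and interneurons that modulates transmitter release. Its lowest, median and highest levels were 7.22, 23.3 and 71.7 CPM in control colons and 6.12, 17.3 and 34.5 CPM in GWI colons. Unlike Nos1 and Vip it was highest in Control replicate 4, and 3 control colons lay above every GWI colon. On the log2 scale the change was -0.65 (SE 0.46, adjusted p = 0.292), and -0.35 without Control replicate 4. Npy (ENSMUSG00000029819.6, chromosome 6, 49822710 to 49829507) encodes neuropeptide Y, a peptide of sympathetic nerves and of some enteric neurons. Npy counts were 0 to 6 in control mice and 0 to 2 in GWI mice, too low for the filter of the test. Of 7 listed genes of sympathetic and sensory nerve fibres, which reach the gut from outside, 5, among them Th and Slc6a2, had at most 1 CPM in every colon, while Avil and Dbh reached 22.0 and 6.74 CPM and were not called.

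Among the genes of excitatory neurons, Tac1 differed most clearly between the groups. Tac1 (ENSMUSG00000061762.12, chromosome 6, 7554879 to 7565834) encodes the precursor of substance P and neurokinin A, the tachykinins that contract gut muscle, and enterochromaffin cells of the epithelium make it as well. Its lowest, median and highest levels were 16.4, 42.2 and 59.9 CPM in control colons and 18.8, 25.5 and 39.9 CPM in GWI colons. Each of the 8 GWI colons lay below the control median and 5 of the 9 controls lay above every GWI colon, while Control replicate 7 lay below them all. Tac1 fell by 0.63 on the log2 scale (SE 0.22, 95% interval -1.09 to -0.17, adjusted p = 0.0414). It also had the narrowest spread of the 9 genes in either group, with 3.64 times between the highest and the lowest control colon, against 22.5 times for Nos1 and 26.2 times for Grp.

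The Tac1 call was close to the threshold. It was lost when Control replicate 1, 3, 4, 5 or 6 or GWI replicate 1, 2, 3, 4, 6 or 7 was left out, with adjusted p-values from 0.0509 without Control replicate 6 to 0.0792 without GWI replicate 3, and the log2 fold change stayed between -0.74 and -0.54 over the 17 fits. It was also lost with replicate number as a block (-0.58, adjusted p = 0.126). It held without the colons with high Hoxa13 (-0.65, adjusted p = 0.0294) and without those with ileal markers (-0.77, adjusted p = 0.0143), 2 fits that were chosen after seeing the data. Of 10 enteroendocrine genes, which cover several hormone cell types and not the enterochromaffin cells alone, 0 were called in edgeR's test. Their median log2 change was 0.08, and 4 of the 10 were negative. Tph1, a gene of enterochromaffin cells, was at 0.44 (adjusted p = 0.155). The summed level of the 10 genes had a median of 645 CPM in controls (274 to 839) and of 747 CPM in GWI colons (378 to 1013). Chgb was highest in CPM. Whether enterochromaffin cells differed between the groups was not tested.

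Penk (ENSMUSG00000045573.9, chromosome 4, 4133531 to 4138819) encodes proenkephalin, the source of the enkephalins, opioid peptides that dampen transmitter release from enteric neurons. Its lowest, median and highest levels were 12.4, 62.5 and 88.2 CPM in control colons and 24.2, 33.1 and 63.6 CPM in GWI colons. The control colons split into 5 with 62.5 to 88.2 CPM and 3, replicates 7, 8 and 9, below every GWI colon, with replicate 6 between them at 38.6 CPM. Of the GWI colons, 7 of 8 lay in the gap, and the log2 fold change of -0.45 (SE 0.37, adjusted p = 0.366) was within the spread. It was -0.30 without Control replicate 3. Exons of Penk share 233 bases with A830012C17Rik on the opposite strand.

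Cartpt (ENSMUSG00000021647.7, chromosome 13, 99898489 to 99901091) encodes the cocaine- and amphetamine-regulated transcript peptide, found in many myenteric neurons. With 0.938, 6.48 and 10.6 CPM as lowest, median and highest in control colons and 1.87, 2.98 and 5.80 CPM in GWI colons, it had the most negative log2 fold change of the 9 genes, -0.73 (SE 0.39, 95% interval -1.55 to 0.10, adjusted p = 0.170). As for Tac1, all 8 GWI colons lay below the control median and 5 control colons lay above every GWI colon. Low counts, 17 to 191 in control mice and 31 to 92 in GWI mice, add to its spread. Cartpt passed the threshold, with -0.98 and an adjusted p of 0.0472, once the colons with ileal markers were left out. In that fit 2 of the 9 genes, Tac1 and Cartpt, were called, against 19.6% of all tested genes. Without the colons with high Hoxa13, 1 of the 9, Tac1, was called, against 34.9%.

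Nmu, Calcb and Grp varied widely between colons, as Nos1 did. Nmu (ENSMUSG00000029236.4, chromosome 5, 76333495 to 76363788) encodes neuromedin U and Calcb (ENSMUSG00000030666.11, chromosome 7, 114718643 to 114723365) the beta form of calcitonin gene-related peptide, both made by intrinsic sensory neurons of the mouse gut, and Grp encodes gastrin-releasing peptide, a bombesin-like peptide of enteric interneurons. Nmu had a lowest, median and highest level of 2.15, 8.99 and 46.3 CPM in control colons and 3.17, 6.11 and 19.0 CPM in GWI colons. Control replicate 1 was the highest control colon for all 3 genes, with 37.1 CPM of Calcb and 60.6 CPM of Grp, and GWI replicate 5 the highest GWI colon, with 18.7 and 30.3 CPM. The medians of Calcb were 5.99 CPM in controls and 5.97 CPM in GWI colons. Grp had medians of 8.51 and 10.7 CPM, the only member whose median was higher in GWI colons.

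The log2 fold changes of these 3 genes turned on those colons. They were -0.53 for Nmu, -0.30 for Calcb and -0.30 for Grp, with adjusted p-values of 0.460, 0.689 and 0.686. Without Control replicate 1 they were 0.09, 0.34 and 0.38, and without GWI replicate 5 they were -0.81, -0.62 and -0.64. Without both colons with high Hoxa13 they were -0.20, 0.02 and 0.04, and without those with ileal markers -0.78, -0.57 and -0.55, so neither size nor sign was settled for these genes. Exons of Nmu share 55 bases with 4930432L08Rik on the opposite strand.

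Per kilobase of exon, the scale on which levels of different genes can be compared, the order of the control medians was Penk with 38.2 CPM per kb, Gal with 29.6, Tac1 with 12.4, Nmu with 10.9, Vip with 7.27, Grp with 5.76, Cartpt with 5.07, Calcb with 4.74, Nos1 with 4.67 and Npy with 0.0984. Nos1 had the highest mean CPM of the 10 genes, 54.8, and stood near the end of this order because its exons span 11151 bases. Between control colons the levels per kb ranged from 7.60 to 54.0 for Penk, from 9.16 to 91.0 for Gal and from 4.84 to 17.6 for Tac1, so neighbours in the order overlapped. In GWI colons Gal was ahead of Penk, with medians of 21.9 and 20.2 CPM per kb. The lengths count every annotated exon, and which transcript forms the colon uses was not measured.

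The 9 tested genes did not vary as a single block. Likeness was measured as the root mean square difference between the log2 CPM of 2 genes, each centred on its mean over the 17 colons, so that a smaller value means a closer course. Calcb and Grp were closest at 0.26, and Nmu lay 0.32 from each of them. Vip lay 0.43 from Cartpt, and Tac1 lay 0.49 from Cartpt and 0.53 from Vip. Nos1 was at least 0.70 from every other member, nearest to Penk and farthest from Tac1, at 1.04. Vip and Nos1, which share many inhibitory motor neurons, differed by 0.93, and Control replicates 8 and 9 had little Nos1 beside near-median Vip.

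The genes with a course close to each member were sought among tested genes with a mean of at least 50 counts per colon, leaving out the members. Nos1 was nearest to Slc18a3, the vesicular acetylcholine transporter, at 0.23, then to Iqsec3 and Eef1a2. Zwint, at 0.22, and Pak3, at 0.23, were among the genes close to Tac1. Penk was nearest to Calb2, the gene of the calcium-binding protein calretinin, with 0.30, and to Pcsk1n. Vip was closest to Fstl5, Syt4 and Nap1l5, from 0.37, and Cartpt to Tagln3, Stmn3 and Nap1l5, from 0.29. The genes nearest to Gal were Necab2, Phactr3 and Tm4sf4, at 0.52 to 0.54. For Nmu, Calcb and Grp the nearest gene was the same, Rgs4, a regulator of G protein signalling, at 0.51, 0.47 and 0.43.

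**Figure D2:**
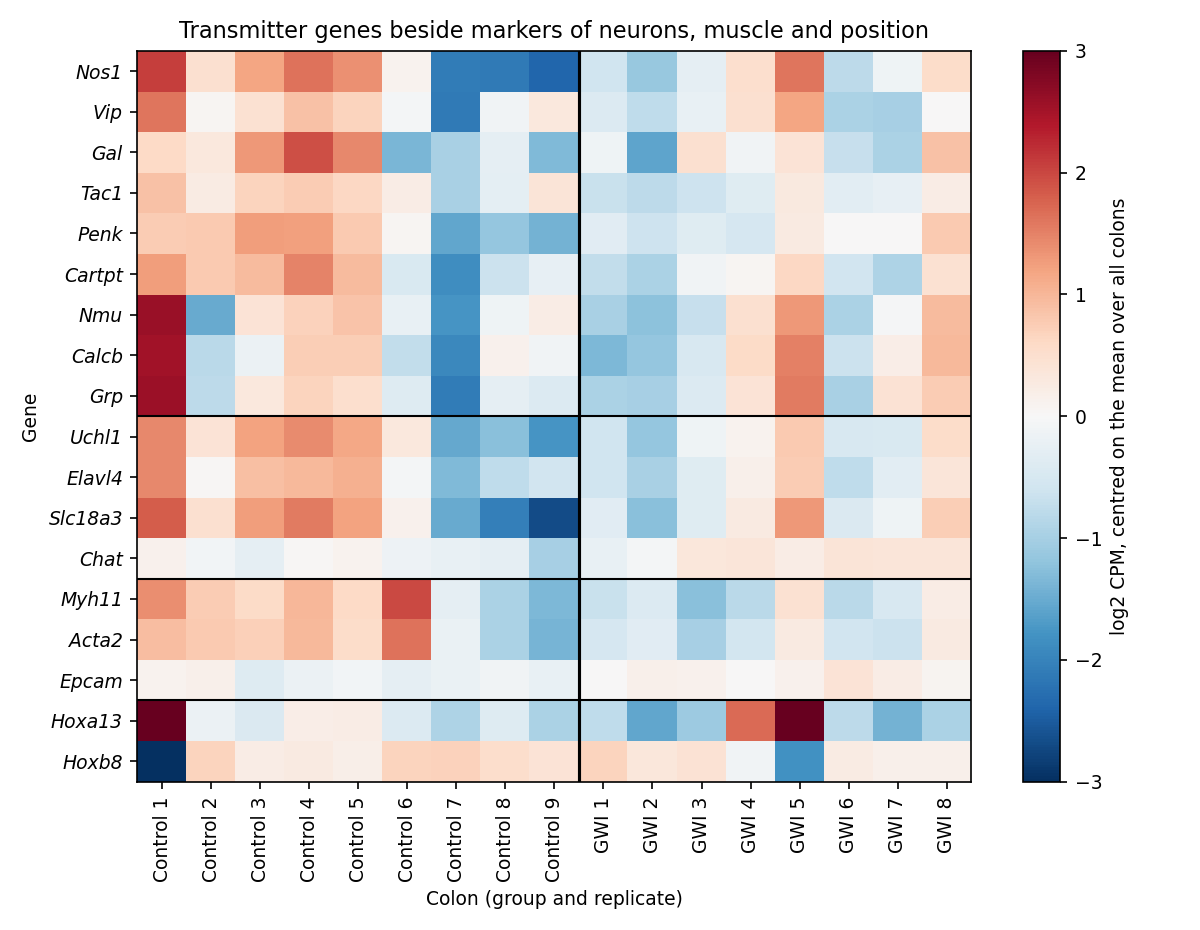
Log2 CPM of the 9 tested transmitter genes, of neuron, muscle and epithelium genes and of Hoxa13 and Hoxb8 in each of the 17 colons, centred on each gene's mean over all colons, with the colour scale ending at 3 log2 units on either side. Control replicates 7, 8 and 9 are low in Nos1, Penk and the neuron genes, while Control replicate 1 and GWI replicate 5 are high in Hoxa13 and in most transmitter genes.

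Some markers of the tissues around the neurons also differed between the groups. Every neuron gene of the 13 was below 0 in log2 fold change (median -0.58), close to the -0.53 of the transmitter genes, and 1 of them, Nefl, was called lower. The neuron gene highest in CPM was Uchl1, and none of the 13 was at or below 1 CPM throughout. The summed level of 10 smooth muscle genes had a median of 11584 CPM in controls (3690 to 23923) and of 5142 CPM in GWI colons (3658 to 11832), with Myh11 highest in CPM, and 7 of the 10 genes were called lower with 0 called higher. Of 11 epithelium genes, 4 were called higher, and their summed level had medians of 12681 CPM in controls and 16336 CPM in GWI colons, with Krt8 highest in CPM. Of 8 tested glia genes, 3 were called lower and 1 higher. Over all tested genes 13.5% were called lower and 13.4% higher, so 1 call among the 13 neuron genes does not set them apart. The part of these shifts in the transmitter gene levels was not tested, beyond the fits with covariates that follow.

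With the mean log2 level of the neuron genes as a covariate, the transmitter genes were compared at a given level of neuron markers. In this fit 2 of the 9 were called, in opposite directions, against 38.9% of all tested genes. Nos1 came to 0.57 on the log2 scale (SE 0.11, 95% interval 0.33 to 0.80, adjusted p = 0.00107), higher in GWI colons at a given marker score. It lay between 0.50 and 0.64 when any single colon was left out. Without the covariate Nos1 was at -0.53, beside a median of -0.58 for the neuron genes, so the 0.57 rests on the fitted slope between Nos1 and the score. In Control replicates 7, 8 and 9 centred log2 Nos1 was -2.09, -2.12 and -2.39. The mean of the neuron genes there was -1.24, -0.95 and -1.06. No fit left out these controls together, so their hold on the slope was not tested. Tac1 had -0.43 (SE 0.13, 95% interval -0.71 to -0.15, adjusted p = 0.0156). Without Control replicate 9 the Tac1 value was -0.25, with an adjusted p of 0.0328, and without any other single colon it lay between -0.53 and -0.40. The remaining 7 genes had values from -0.22 for Cartpt to 0.24 for Grp. The sign of Nos1 thus depended on the fit, since limma-voom with quality weights and no covariate called it lower (-1.06, adjusted p = 0.0379).

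With the difference between the muscle and epithelium scores as a covariate, 0 of the 9 genes were called by edgeR's test, also at an unadjusted p under 0.05, against 27.8% of all tested genes. Of the 9 log2 fold changes, 8 were then positive, the highest that of Nos1 at 1.55 (95% interval -0.07 to 3.17), and Tac1 was at -0.26 (adjusted p = 0.478). With the difference between the posterior and anterior Hox scores as a covariate, 0 of the 9 were called, again also without adjustment, against 36.3%, and Tac1 was at -0.39 (adjusted p = 0.161). With limma-voom and quality weights per sample, 6 of the 9 were called, all of them lower, against 57.2% of all tested genes called in either direction. These were Tac1, Penk, Cartpt, Gal, Nos1 and Vip, and the weights were lowest for Control replicate 9 at 0.117 and Control replicate 1 at 0.248, against up to 3.33 for Control replicate 5.

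**Figure D3:**
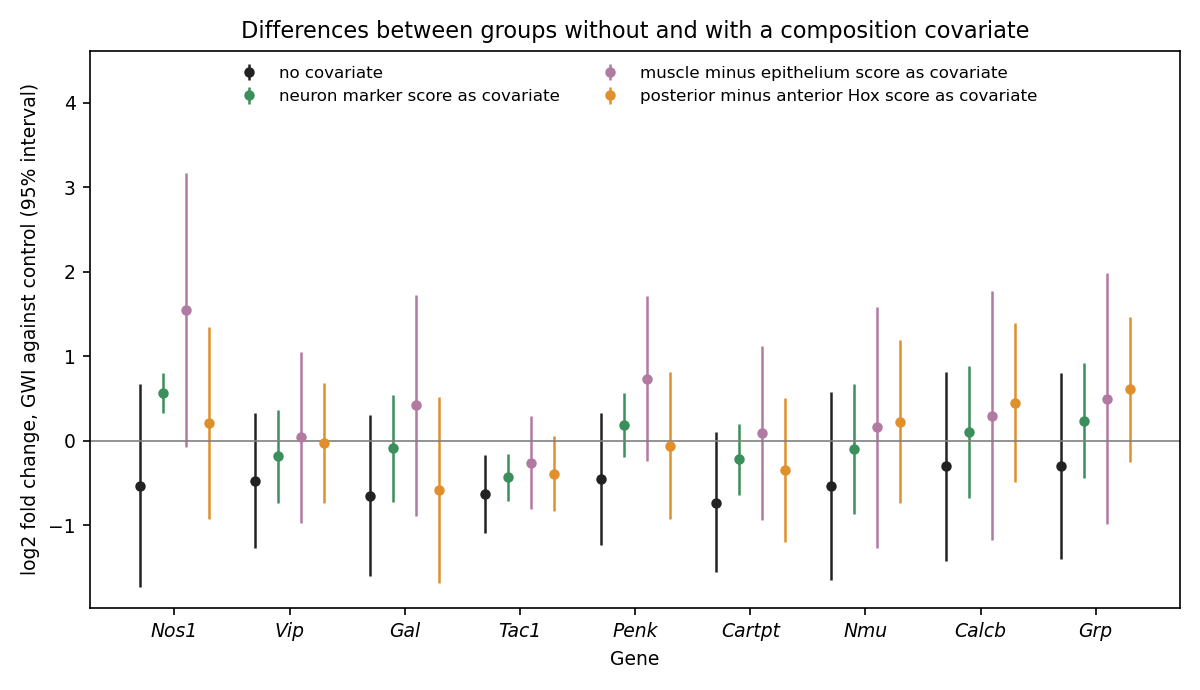
Log2 fold change, GWI against control, of each tested transmitter gene with its 95% interval, without a covariate in black and with a neuron marker score, a muscle minus epithelium score or a posterior minus anterior Hox score as a covariate in green, purple and orange. Intervals narrow with the neuron marker score, where Nos1 lies at 0.57 and Tac1 at -0.43, and Tac1 is the only gene below 0 in all 4 fits.

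Ratios within each colon ask whether 2 transmitter genes differ between the groups by different amounts, since the share of neurons in the sample cancels out of a ratio when both genes come from them. For none of the 6 ratios compared did the adjusted p fall under 0.05. The spread within groups was wide, with a control SD of 1.54 for Nos1 to Chat, so differences of the sizes seen could be missed. Nos1 to Vip had a mean log2 ratio of 0.75 ± 1.28 (SD, n = 9) in controls and 1.10 ± 0.41 (SD, n = 8) in GWI colons (exact permutation test, two-sided, p = 0.480, adjusted p = 0.501 over the 6 ratios). Penk to Tac1 came with the smallest p, at -0.01 ± 0.79 in controls and 0.40 ± 0.22 in GWI colons, higher than the control mean in 8 of 8 GWI colons (exact permutation p = 0.180, adjusted p = 0.501). The differences of the other 4 were 0.54 for Nos1 to Tac1, 0.19 for Vip to Tac1, -0.46 for Nos1 to Chat and -0.46 for Cartpt to Nos1, each with an adjusted p of 0.501. The control group spread more widely than the GWI group in 5 of the 6.

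A transmitter acts through its receptors, and 14 of 19 listed receptor genes could be tested. Of these, 5 were called lower and 0 higher, beside 13.5% and 13.4% of all tested genes. Their median log2 change was -0.56, and 13 of 14 were negative, as were 55.2% of all tested genes. Ramp1 and Calcrl, which together form the receptor for calcitonin gene-related peptide, fell by 0.66 (SE 0.15, adjusted p = 0.00457) and by 0.63 (SE 0.15, adjusted p = 0.00632). Ramp1 had a lowest, median and highest level of 56.4, 88.9 and 135 CPM in controls and 46.7, 59.0 and 74.5 CPM in GWI colons, and Calcrl lay below every control colon in 7 of the 8 GWI colons. Their ligand gene Calcb was not called, and its 95% interval, -1.42 to 0.81, includes the values of both receptor genes. The Ramp1 call held in all 31 alternative fits, and that of Calcrl in all but the fit with the muscle covariate (adjusted p = 0.0540). By the study's cutoffs, which ask for an absolute log2 value over 1, neither gene was called.

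The other receptor genes called lower were those of peptides whose own genes were not called or not tested, with 1 exception. Galr2, a galanin receptor, fell by 1.19 (SE 0.33, adjusted p = 0.0151), from a control median of 8.65 CPM to a GWI median of 3.66 CPM. Npy2r, a neuropeptide Y receptor of nerve endings, fell by 0.82 (SE 0.25, adjusted p = 0.0219). Tacr1, the substance P receptor NK1 on interstitial cells of Cajal, neurons and muscle, fell by 1.00 (SE 0.32, adjusted p = 0.0305), so Tac1 and its main receptor gene were both lower. The Tacr1 call was lost without Control replicate 1, 4, 5 or 6 or GWI replicate 1, 3, 6 or 7, with adjusted p-values up to 0.0623. Galr2 and Tacr1 were at 0.05 and 0.02 with the muscle covariate, and their calls were also lost with the Hox covariate (adjusted p = 0.0906 and 0.180) and with replicate number as a block (0.0701 and 0.0548). Npy2r was not called with the muscle covariate (adjusted p = 0.174), with the block (0.0842) or without the colons with ileal markers (0.0749).

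The receptor genes of vasoactive intestinal peptide were not called. Vipr1, the form of the epithelium, with a mean of 167 CPM, had medians of 125 CPM in controls and 191 CPM in GWI colons and a log2 change of 0.40 (SE 0.17, adjusted p = 0.0858). It was the only receptor gene with a positive value. Vipr2, the form of smooth muscle, was at -0.01, and Galr1 and Npy1r were at -0.15 and -0.21. For the other tachykinin receptors, Tacr2 had -0.81 (adjusted p = 0.0742) and Tacr3 had -0.59 (adjusted p = 0.206). The opioid receptor genes Oprd1 and Oprk1 had -0.51 and -0.53, the bombesin receptor gene Grpr had -0.05, and Oprm1, Npy5r, Nmur1 and Nmur2 were too low to be tested. Galr3 was not found in the table under that name.

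Nitric oxide acts on soluble guanylyl cyclase in muscle and interstitial cells, and cyclic GMP then activates a kinase that relaxes the cell. Of 8 tested genes of this pathway, 4 were called lower and 1 higher, beside 13.5% and 13.4% of all tested genes, and the median log2 change was -0.83. The 4 lower genes are steps after the gas is made. Gucy1a1 and Gucy1b1, the cyclase subunits, fell by 0.82 (SE 0.22, adjusted p = 0.0116) and by 0.85 (SE 0.23, adjusted p = 0.0140). Prkg1, the cyclic GMP-dependent kinase, fell by 0.98 (SE 0.30, adjusted p = 0.0226), and Mrvi1, its substrate at the calcium store, by 0.94 (SE 0.33, adjusted p = 0.0393). These genes are strongly expressed in smooth muscle, whose markers were lower too. With the muscle covariate Gucy1a1 was at -0.00, Gucy1b1 at -0.07, Prkg1 at -0.16 and Mrvi1 at 0.26, and 0 of the 4 were called. Prkg1 also lost its call with the Hox covariate (adjusted p = 0.119) and with replicate number as a block (0.103).

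Mrvi1 was also not called without Control replicate 1, 2, 4 or 6 or GWI replicate 1, 2, 3, 4, 6 or 7, with adjusted p-values up to 0.0866, with the Hox covariate (0.290), with the block (0.0931), with no filter (0.0541) and without the ileal marker colons (0.0912). Nos1ap, whose product binds the synthase, rose by 0.66 (SE 0.16, adjusted p = 0.00880), from 3.43, 3.90 and 7.90 CPM in controls to 5.68, 6.70 and 8.60 CPM in GWI colons. It kept its call in all 31 alternative fits, but not by the study's cutoffs, which ask for an absolute log2 value over 1. The other synthase genes, Nos2 (-0.96, adjusted p = 0.304) and Nos3 (-0.33, adjusted p = 0.327), were not called, nor was Pde5a, which breaks down cyclic GMP (-0.37, adjusted p = 0.0703).

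Peptide precursors are cut, trimmed and packed by a common set of proteins. Of 14 tested genes for processing and granules, 2 were called lower and 0 higher, with a median log2 change of -0.37. With 13.5% of all tested genes called lower, 2 of 14 does not set this list apart. Cpe, the carboxypeptidase that trims cut peptides, fell by 0.77 (SE 0.27, adjusted p = 0.0457), with medians of 394 CPM in controls and 187 CPM in GWI colons. Scg5, the chaperone of the convertase encoded by Pcsk2, fell by 0.66 (SE 0.21, adjusted p = 0.0274). The convertase genes Pcsk1 (-0.17) and Pcsk2 (-0.57) and the granule genes Chga (0.30) and Chgb (0.24) were not called. The Cpe call was lost without Control replicate 1, 2, 3, 4, 5 or 6 or GWI replicate 1, 2, 3, 4, 6 or 7 (adjusted p up to 0.0935) and with the muscle covariate, where its value was 0.23. It was also lost with the Hox covariate (0.259), the block (0.0899), library size alone (0.0503), no filter (0.0572) and the ileal marker colons left out (0.0852). The Scg5 call was lost without Control replicate 4 or GWI replicate 1, 6 or 7 (adjusted p up to 0.0580), with the muscle covariate (0.224) and with the Hox covariate (0.0687).

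Genes of other transmitters were compared last. Of 12 that were tested, 1 was called higher and 0 lower, beside 26.8% of all tested genes called in either direction. The median log2 change was -0.31. The gene called was Chat, which makes acetylcholine (0.40, SE 0.13, adjusted p = 0.0336), with medians of 153 CPM in controls and 216 CPM in GWI colons. The call was lost without Control replicate 3 or 7 or GWI replicate 3, 4, 6, 7 or 8, with adjusted p-values up to 0.0644, and with upper-quartile factors (0.0909), library size alone (0.0836), no filter (0.0518), the block (0.0864) or the ileal marker colons left out (0.0748). Tuft cells of the epithelium make Chat as well, and their marker Trpm5 was at 0.57 (adjusted p = 0.0951), so the cells behind the Chat call cannot be told apart here. Slc18a3 and Slc5a7, which load acetylcholine into vesicles and take up choline in cholinergic neurons, were at -0.52 (adjusted p = 0.474) and -0.45 (adjusted p = 0.425). Chat ranged from 85.8 to 222 CPM over all colons and Slc18a3 from 0.627 to 16.6 CPM. In the table, the entries of Il4, Il6 and Chat stand ahead of an otherwise alphabetical order. What this order says about the Chat counts was not tested, and the Nos1 to Chat ratio carries that doubt.

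Promoter sequence is shown for the 3 members whose levels varied most alike among those with an entry in the RefSeq promoter table of GRCm38.p6, which are Vip, Tac1 and Cartpt. That table matched 7 of the 10 genes by symbol, without Penk, Calcb and Grp. Each entry spans 250 bases before to 50 after a gene's start, and both strands were searched for the cyclic AMP response element TGACGTCA and for its shorter core TGACG, which is part of the longer motif. Many neuropeptide genes are known to respond to cyclic AMP. The core was in 6 of the 7 entries, all but that of Npy, and in 20.8% of the 32851 promoters of the table. The full element was in the Cartpt entry only, and in 1.79% of all promoters. A match of letters is a description of the window and not a binding site. The 250 bases before each start are printed 5′ to 3′ on the gene's strand, with matches in capitals, from chr10:5638968-5639217 (plus strand) for Vip, chr6:7554811-7555060 (plus strand) for Tac1 and chr13:99900684-99900933 (minus strand) for Cartpt.
Vip: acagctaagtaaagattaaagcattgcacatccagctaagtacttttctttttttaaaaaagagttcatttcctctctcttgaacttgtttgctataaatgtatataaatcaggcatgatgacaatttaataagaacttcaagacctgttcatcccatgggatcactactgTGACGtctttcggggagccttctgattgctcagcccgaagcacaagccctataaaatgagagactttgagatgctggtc
Tac1: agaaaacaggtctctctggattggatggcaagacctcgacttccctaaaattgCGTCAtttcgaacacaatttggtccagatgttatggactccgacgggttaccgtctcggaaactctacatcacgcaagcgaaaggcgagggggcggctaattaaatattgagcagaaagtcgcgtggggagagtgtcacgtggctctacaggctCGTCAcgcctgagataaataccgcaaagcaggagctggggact
Cartpt: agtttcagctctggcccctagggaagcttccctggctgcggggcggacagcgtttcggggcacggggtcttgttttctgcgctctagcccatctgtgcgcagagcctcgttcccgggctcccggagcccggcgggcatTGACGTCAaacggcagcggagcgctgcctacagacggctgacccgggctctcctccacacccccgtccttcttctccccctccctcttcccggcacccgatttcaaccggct
The core begins 79 bases before the start of Vip, 197 and 43 bases before that of Tac1, and the full element begins 112 bases before that of Cartpt. The GENCODE annotation places the first exons of Tac1, Cartpt, Nos1 and Nmu farther upstream, so the starts used here are those of the RefSeq transcripts. The printed Cartpt window and the Tac1 core at 43 bases lie inside the GENCODE spans of these genes. So does the whole Nos1 window, chr5:117866589-117866888, in a gene whose GENCODE start is 117781032.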

How the data were processed

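The count values are reads counted per gene and were deposited by the authors as a table of whole numbers, 1 column for each of 17 mice. The authors trimmed reads with Trimmomatic 0.36, aligned them to GRCm38 with STAR 2.5.2b and counted them with featureCounts. The annotation release and strand setting were not given in the sources used here. The number of columns without a sample was 0, and replicate numbers do not pair the mice. The letters in the column names are not defined, and whether they mark mice of a shared cage or litter was not tested, so the tests treat mice as independent. Genes were chosen by name, and the members and gene lists were chosen with earlier results of these data known. Genes kept by filterByExpr were scaled with TMM factors and compared with edgeR 4.0.16 in R 4.3.3, by its robust quasi-likelihood test and Benjamini-Hochberg adjustment over all tested genes. Ratios were compared by an exact permutation test over 24310 assignments of mice to groups. Likeness was the root mean square difference of centred log2 CPM. Gene positions and exon lengths came from GENCODE M21 on GRCm38. Gene lists covered receptors, the nitric oxide pathway, peptide processing, other transmitters, neurons, glia, smooth muscle, interstitial cells of Cajal, epithelium, enteroendocrine cells, fibroblasts, immune cells, sympathetic and sensory nerve, small intestine, pancreas, adipose tissue and anterior and posterior Hox genes. Alternatives changed scaling, test (DESeq2 1.42.0, limma 3.58.1), filter, covariates and samples. Summaries used Python 3.11.15 with pandas 2.3.3. The scripts were tested on simulated data.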

Additional observations from a re-analysis of the deposited data

Results flagged for a closer look

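Control replicate 7 was far below the other control colons in Vip. It had 4.47 CPM, and the Dixon ratio of its log2 CPM was 0.544, above the critical value of 0.493 for 9 samples. Of 30 groups tested in this way, 1 was beyond its critical value, where chance alone gives about 1 in 20.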

How the results depend on the processing

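Over all genes, 3792 were called, and 8091 with limma-voom and sample quality weights, 2218 with the replicate block and 342 by the study's own cutoffs (unadjusted p under 0.05, absolute log2 value over 1), while leaving out single colons gave 2781 to 4818. Of the transmitter genes, 1 was called, against 6 with limma-voom, 2 with the neuron score as a covariate, 2 without the ileal marker colons, and 0 with the replicate block, the muscle minus epithelium score, the Hox score or the study's cutoffs, where Tac1 met the cutoff on p and not that on size. Leaving out single colons gave 0 to 1. The 4 lists of partner genes had 14, 8, 14 and 12 genes tested. In them 13 were called, 31 with limma-voom, 6 with the replicate block, 4 with the muscle covariate and 1 by the study's cutoffs. Of all tested genes 26.8% were called in the main fit, 57.2% with limma-voom and 27.8% with the muscle covariate. When single colons were left out, 8 to 17 partner genes were called. The cause was not tested.

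Signs turned mostly with covariates. With the muscle minus epithelium score the log2 fold changes were 0.04 for Vip, 1.55 for Nos1, 0.73 for Penk, 0.09 for Cartpt, 0.42 for Gal, 0.16 for Nmu, 0.30 for Calcb, 0.50 for Grp, 0.02 for Tacr1, 0.05 for Galr2, 0.26 for Mrvi1 and 0.23 for Cpe. With the neuron score they were 0.57 for Nos1, 0.19 for Penk, 0.11 for Calcb and 0.24 for Grp, and with the Hox score 0.21 for Nos1, 0.22 for Nmu, 0.45 for Calcb and 0.61 for Grp. Without the colons with high Hoxa13, Calcb was at 0.02 and Grp at 0.04. Leaving out single colons gave -0.81 to 0.09 for Nmu, -0.62 to 0.34 for Calcb and -0.64 to 0.38 for Grp. The cause was not tested. Tac1 stayed negative throughout, and none of the 6 ratios came under the threshold in any alternative. The fits without the Hoxa13 colons, without the ileal marker colons and with single colons left out beside the neuron score were chosen after seeing the data.

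The replicate block pairs mice by replicate number, and with it Calcb was at 0.02 and Tac1 at -0.58. Deviations of mice with the same number had correlations of -0.506 to 0.115, and 1 of 8 was over 0.1, so the numbers gave no sign of pairing.

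Nos1 and the sensory peptide genes spread widely between colons, and with 9 and 8 mice the intervals of their differences were wide. Npy did not pass the filter, and without it was at -1.25 (edgeR, adjusted p = 0.190). Gene counts in whole tissue do not separate neuron number from transcript per neuron, and covariates built from marker genes of the same colons carry the error of those genes. Marker genes of layer and position along the gut differed between explants. Peptide, enzyme activity and release were not measured.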

Other observations

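Of the further gene lists, glia had 3 genes called lower and 1 higher of 8 tested, fibroblasts 2 lower of 7, immune cells 1 lower of 6 and adipose tissue 1 higher of 6. Small intestine had 1 lower of 5, Fabp6 (-4.40, adjusted p = 0.00880), whose highest values, 119 and 314 CPM, were those of Control replicates 6 and 7. Interstitial cells of Cajal (4 tested), anterior Hox (10) and posterior Hox (6) had 0 called by edgeR. The 7 pancreas genes were at most 1 CPM in every colon and 0 were tested. Over all tested genes 13.5% were called lower and 13.4% higher, so counts of 1 or 2 do not set a list of this size apart.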
